A study of Mus musculus with 11 samples.

Results

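The genes described here are 9 receptors with which T cells hold on to other cells, vessel walls and matrix. They are the integrin alpha chains Itgal, Itga4, Itgae and Itgav, the integrin beta chains Itgb1, Itgb2 and Itgb7, the hyaluronan receptor Cd44 and the selectin ligand Selplg. They were taken by symbol, and all 9 were present among the 25562 genes of the expression table and passed the low-value filter of 1 TPM (the RSEM level unit, a length-corrected share of a library's transcripts). All libraries came from CD8+ T cells of C57BL/6 mouse spleens, isolated with a kit, held in a 22 h pretreatment and activated for 24 h through CD3 (antibody at 1 µg/mL) and CD28 (antibody at 0.5 µg/mL). The 4 AOAH libraries had ethanol and 10 µg/mL recombinant human acyloxyacyl hydrolase (AOAH), a lipase that removes fatty acyl chains from lipopolysaccharide and phospholipids. The 3 PC libraries had 60 µM of the phosphatidylcholine PC16:0-20:4 and a PBS buffer with 10% glycerol, and the 4 vehicle libraries had ethanol and that buffer. Ethanol is named above for the AOAH and vehicle libraries alone, and its part in the comparisons with PC was not tested. The labels give no glycerol share for the AOAH libraries, so AOAH and its buffer cannot be told apart, against vehicle or against PC. They conflict on whether AOAH was given during pretreatment or during activation, on plate-bound antibody against beads, and on interleukin-2 in the medium. They name no genetic change and do not say whether each library of a group had its own animal or culture, so the tests speak of the spread among these libraries alone, and that spread may be technical.

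Integrins are pairs of an alpha and a beta chain, and the pair decides the ligand. Itgal with Itgb2 forms LFA-1, which binds ICAM proteins on antigen-presenting and target cells. Itga4 pairs with Itgb1 to bind VCAM-1 and fibronectin, or with Itgb7 to bind MAdCAM-1 on gut vessels, and Itgae with Itgb7 holds T cells to E-cadherin of epithelium. Itgav chains bind matrix and the latent form of TGF-beta, CD44 binds hyaluronan and marks antigen-experienced T cells, and the protein of Selplg, PSGL-1, carries the sugars by which P-selectin catches rolling cells. The level of a chain's transcript is not the level of the receptor at the surface, which was not measured in the files used here.

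With AOAH, the transcripts of Itgae, Itgb7, Itga4 and Selplg fell while those of Itgb1 and Cd44 rose. In TPM, Itgae fell by 48.0% of its vehicle level, Itgb7 fell by 34.2%, Itga4 fell by 28.1% and Selplg fell by 18.5%. Cd44 was 15.8% higher and Itgb1 11.2% higher, with the Itgb1 call lost in 9 of 16 alternative settings. Of the 9 genes 6 passed the test against vehicle, 2 higher and 4 lower, where 25.2% of all tested genes passed (13.1% higher and 12.1% lower). With PC, Selplg alone of the 9 passed and rose by 10.3% (a call lost in 5 of 15 alternative settings), where 19.5% of all tested genes passed (8.27% higher and 11.2% lower). AOAH and PC libraries differed directly in 6 of the 9 genes, 2 higher and 4 lower with AOAH, where 45.8% of all tested genes differed (24.3% higher and 21.5% lower). A gene was called where the adjusted p (limma on log2(TPM + 1), Benjamini-Hochberg over all tested genes) was under 0.05. The 9 genes were chosen with earlier results of these data known. Their counts, here and below, are therefore no test of the list against all genes.

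Promoter sequences are shown for Itga4 and Itgb7, which fell with AOAH, and for Cd44, which rose, so that members moving in opposite directions can be read side by side. They were chosen after the changes were seen. RefSeq promoters (assembly GRCm38.p6, another build than that of the expression table) matched 5 of the 9 symbols, also Itgav and Itgb1. The stretches are the 250 bases before the annotated start, on the gene's strand, at chr2:79255176-79255425 (plus strand) for Itga4, chr15:102231936-102232185 (minus strand) for Itgb7 and chr2:102901666-102901915 (minus strand) for Cd44. Capitals mark matches, on either strand, to short cores of 3 families of transcription factors that act in T cells: TGTGGT for RUNX, GGAAG for ETS and CACCC for KLF.
Itga4: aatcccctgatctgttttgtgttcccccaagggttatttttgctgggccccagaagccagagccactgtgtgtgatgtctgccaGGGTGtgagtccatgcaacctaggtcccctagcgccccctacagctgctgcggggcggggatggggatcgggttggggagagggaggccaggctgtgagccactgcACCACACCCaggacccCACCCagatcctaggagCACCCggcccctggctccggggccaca
Itgb7: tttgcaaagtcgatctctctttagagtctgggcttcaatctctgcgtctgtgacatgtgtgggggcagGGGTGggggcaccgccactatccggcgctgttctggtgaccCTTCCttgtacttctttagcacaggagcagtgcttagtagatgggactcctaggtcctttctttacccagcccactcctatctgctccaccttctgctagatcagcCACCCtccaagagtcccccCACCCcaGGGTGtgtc
Cd44: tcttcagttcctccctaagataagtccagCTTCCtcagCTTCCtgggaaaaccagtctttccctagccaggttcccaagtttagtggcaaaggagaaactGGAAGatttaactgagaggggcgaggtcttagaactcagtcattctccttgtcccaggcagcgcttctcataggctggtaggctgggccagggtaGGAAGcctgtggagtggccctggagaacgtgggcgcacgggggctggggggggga
The Itga4 stretch held 1 RUNX core, no ETS core and 4 KLF cores, and its RUNX core overlapped 1 of the KLF cores in the run ACCACACCC. The Itgb7 stretch held no RUNX core, 1 ETS core and 4 KLF cores. The Cd44 stretch held 4 ETS cores and no match to the other cores. The Itgav stretch held 2 ETS cores and 1 KLF core, and the Itgb1 stretch held 2 ETS cores and 2 KLF cores, with no RUNX core in either. Such short cores are common: of 32851 mouse promoters cut to the same 250 bases, 14.0% held the RUNX core, 64.1% the ETS core and 52.0% the KLF core. A match is a description of the letters and not of binding.

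The TPM values of a library summed to between 998406 and 998655, a sum that TPM holds near constant by definition. Genes that reached 1 TPM numbered 11423 to 11497 with AOAH, 11569 to 11633 in vehicle and 11641 to 11739 with PC. The groups thus did not overlap in this number, and its part in the changes below was not tested. Summed over their lists, B cell markers reached 7.76 to 11.8 TPM, monocyte, macrophage and neutrophil markers 0.06 to 2.67 TPM and platelet markers 0.06 to 1.94 TPM, and no marker present in the table was at 0 in every library (5 of 8 myeloid and 3 of 5 red cell markers were matched in it). The CD4 T cell, dendritic cell and red cell lists each summed to at most 6.86 TPM. The natural killer list summed to 81.2 to 87.7 TPM with AOAH, 78.9 to 84.4 TPM with PC and 97.1 to 102 TPM in vehicle, nearly all of it Eomes, which activated CD8 T cells also express, and Eomes was called lower with both treatments. The defining marker Cd8a ranged from 331 to 446 TPM, whereas Cd4 did not exceed 0.42 TPM. The summed level of 8 CD8 T cell markers was 2117 to 2134 TPM with AOAH, 2735 to 2775 TPM with PC and 2313 to 2383 TPM in vehicle. Of these markers 5 of 8 were called lower with AOAH and 8 of 8 higher with PC, and the part of these markers in the changes below was not tested. In these bulk cultures fewer cells that express a gene and less of its RNA per cell cannot be told apart.

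Within the vehicle group, libraries 1 and 3 both lay above libraries 2 and 4 for Itgal, Itga4, Itgav, Itgb1, Itgb2 and Cd44, and both lay below them for Itgae and Selplg. Over the 11595 genes that averaged 1 TPM or more, 32.6% had that upper pattern and 14.2% the lower. The pattern was noticed in the values, and the labels give nothing that sets these libraries apart other than their batch numbers. Its part in the comparisons with vehicle was not tested beyond leaving out single libraries.

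**Figure D1:**
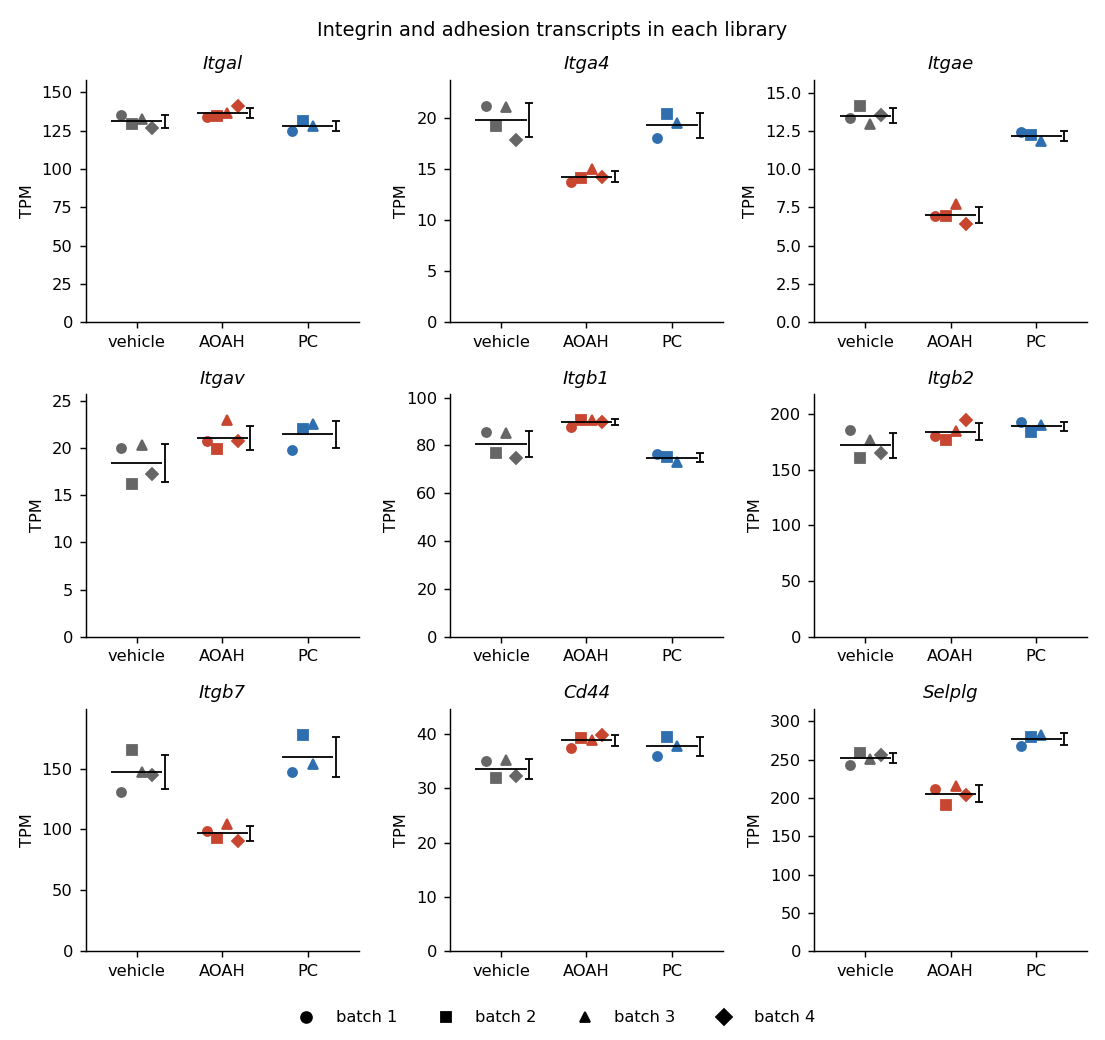
TPM of the 9 genes in each library, with 4 vehicle, 4 AOAH and 3 PC libraries, linear axes from 0, a horizontal line at the group mean, a bar of 1 SD to each side and a symbol for the batch number. For Itgae all AOAH libraries lie between 6.43 and 7.74 TPM, below every other library.

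Among the alpha chains, Itgae had the widest span between groups. It read 6.96, 6.92, 7.74 and 6.43 TPM in AOAH libraries 1 to 4, 12.4, 12.3 and 11.8 TPM in PC libraries 1 to 3, and 13.3, 14.15, 13.0 and 13.5 TPM in vehicle libraries 1 to 4. The groups did not overlap and stood in the order vehicle, PC, AOAH. Against vehicle it fell with AOAH by 0.86 on the log2 scale (SE 0.06, 95% interval -0.997 to -0.716, limma adjusted p = 4.30e-05), and it was lower in 4 of 4 same-batch pairs. Groups that do not overlap fix the sign of every pair in advance. This count and those below for other genes therefore add no evidence. With PC the log2 difference was -0.14 (SE 0.06, 95% interval -0.275 to 0.00255, limma adjusted p = 0.155), which did not pass although the libraries did not overlap. The direct difference between AOAH and PC was -0.72 (SE 0.07, limma adjusted p = 9.16e-05). Itgae is also the lowest of the 9 genes in mean TPM, at rank 7278 of 25562.

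Itga4, the alpha chain shared by the VCAM-1 and the MAdCAM-1 receptor, read 13.7, 14.15, 15.0 and 14.2 TPM with AOAH, 18.0, 20.45 and 19.5 TPM with PC and 21.2, 19.2, 21.1 and 17.8 TPM in vehicle. All AOAH libraries lay below all others, while PC and vehicle libraries overlapped. The fall with AOAH was 0.45 on the log2 scale relative to vehicle (SE 0.06, 95% interval -0.59 to -0.30, limma adjusted p = 0.00126), seen in 4 of 4 same-batch pairs. PC and vehicle differed by -0.08 (95% interval -0.24 to 0.08, limma adjusted p = 0.444). AOAH stood 0.41 lower than PC, as a log2 difference of -0.41 (SE 0.06, limma adjusted p = 7.14e-04). In the GENCODE M21 annotation, exons of Cerkl on the opposite strand share 8.04% of the exon bases of Itga4. Cerkl stood at 1.34 to 3.09 TPM with AOAH, 0.83 to 1.75 TPM with PC and 1.85 to 6.54 TPM in vehicle. The use of strand in the counting is not stated, so reads of the shared bases cannot be told apart.

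Itgal, the LFA-1 alpha chain and the most abundant alpha chain here, read 134, 135, 136 and 141 TPM with AOAH, 125, 131 and 128 TPM with PC and 136, 129, 133 and 126 TPM in vehicle. AOAH libraries lay above PC libraries without overlap, and each group overlapped vehicle. The log2 difference was 0.06 for AOAH against vehicle (95% interval -0.01 to 0.13, limma adjusted p = 0.190) and -0.05 for PC against vehicle (95% interval -0.13 to 0.03, limma adjusted p = 0.346). Against PC, Itgal was higher with AOAH by 0.09 (SE 0.03, 95% interval 0.02 to 0.16, limma adjusted p = 0.0392). That call was lost with batch as a replicate block (limma adjusted p = 0.115), with no filter (0.0806), after quantile normalization (0.446), without AOAH 2 (0.0574), AOAH 3 (0.0704) or AOAH 4 (0.0879), and without PC 1 (0.130) or PC 3 (0.0957). Of the 6 calls of the direct comparison, that of Itgal alone was lost under any alternative run.

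Itgav, the alpha chain of the receptors for latent TGF-beta and vitronectin, read 20.7, 19.9, 22.95 and 20.8 TPM with AOAH, 19.8, 22.0 and 22.5 TPM with PC and 20.1, 16.2, 20.3 and 17.3 TPM in vehicle. The groups overlapped throughout, with the lowest values in vehicle 2 and 4. Its log2 difference from vehicle was 0.19 with AOAH (95% interval 0.01 to 0.37, limma adjusted p = 0.118) and 0.18 with PC (95% interval -0.05 to 0.41, limma adjusted p = 0.238). After quantile normalization the AOAH difference passed (limma adjusted p = 0.0497). AOAH and PC differed by -0.02 (95% interval -0.17 to 0.13, limma adjusted p = 0.796). Exons of the opposite-strand transcript Gm13684, at 0.00 to 0.20 TPM, share 5.90% of the exon bases of Itgav, and the other 7 genes share none.

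Among the beta chains, Itgb7, the partner of Itga4 in the MAdCAM-1 receptor and of Itgae in the E-cadherin receptor, moved most. It read 98.85, 93.3, 104 and 90.7 TPM with AOAH, 147, 178 and 154 TPM with PC and 131, 165, 147 and 145 TPM in vehicle. Every AOAH library lay below every other library, and PC and vehicle overlapped. Relative to vehicle Itgb7 fell with AOAH by 0.60 on the log2 scale (SE 0.07, 95% interval -0.75 to -0.44, limma adjusted p = 4.70e-04), in 4 of 4 same-batch pairs. The PC difference of 0.11 (SE 0.10, 95% interval -0.13 to 0.35, limma adjusted p = 0.489) did not pass, and its interval is the widest of the 9 genes in that comparison. AOAH against PC gave -0.71 (SE 0.07, limma adjusted p = 1.36e-04).

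Itgb1, the common beta chain of matrix receptors, read 87.8, 90.5, 90.5 and 89.9 TPM with AOAH, 76.65, 75.0 and 73.1 TPM with PC and 85.6, 76.7, 85.2 and 75.0 TPM in vehicle. AOAH libraries lay above all others. PC libraries lay below vehicle 1 to 3, with which PC was compared, and overlapped only vehicle 4. The rise with AOAH was 0.15 on the log2 scale (SE 0.05, 95% interval 0.05 to 0.26, limma adjusted p = 0.0402), in 4 of 4 same-batch pairs. It lost the call with batch as a replicate block (limma adjusted p = 0.0730), with no filter (0.0892) and after quantile normalization (0.0929). It also lost the call when vehicle 2 (limma adjusted p = 0.103), vehicle 4 (0.0902) or any single AOAH library (0.0600, 0.0868, 0.0845 and 0.0841 for libraries 1 to 4) was left out. With PC the difference from vehicle was -0.14 (SE 0.05, 95% interval -0.26 to -0.02, limma adjusted p = 0.107), and it passed without vehicle 2 (-0.19, limma adjusted p = 0.0211). The direct test of AOAH against PC passed with 0.26 (SE 0.03, 95% interval 0.19 to 0.32, limma adjusted p = 2.44e-04), and this call was kept under all 15 alternatives.

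Itgb2, the beta chain of LFA-1 and the most abundant of the integrin chains, read 180.1, 176, 185 and 194 TPM with AOAH, 192, 184 and 189.7 TPM with PC and 185, 159.9, 177 and 165 TPM in vehicle. The groups overlapped. Its log2 difference from vehicle was 0.10 with AOAH (95% interval -0.01 to 0.21, limma adjusted p = 0.175) and 0.12 with PC (95% interval -0.01 to 0.25, limma adjusted p = 0.179). AOAH and PC differed by -0.04 (95% interval -0.12 to 0.05, limma adjusted p = 0.437), a difference that passed only after quantile normalization (-0.11, limma adjusted p = 0.0386).

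**Figure D2:**
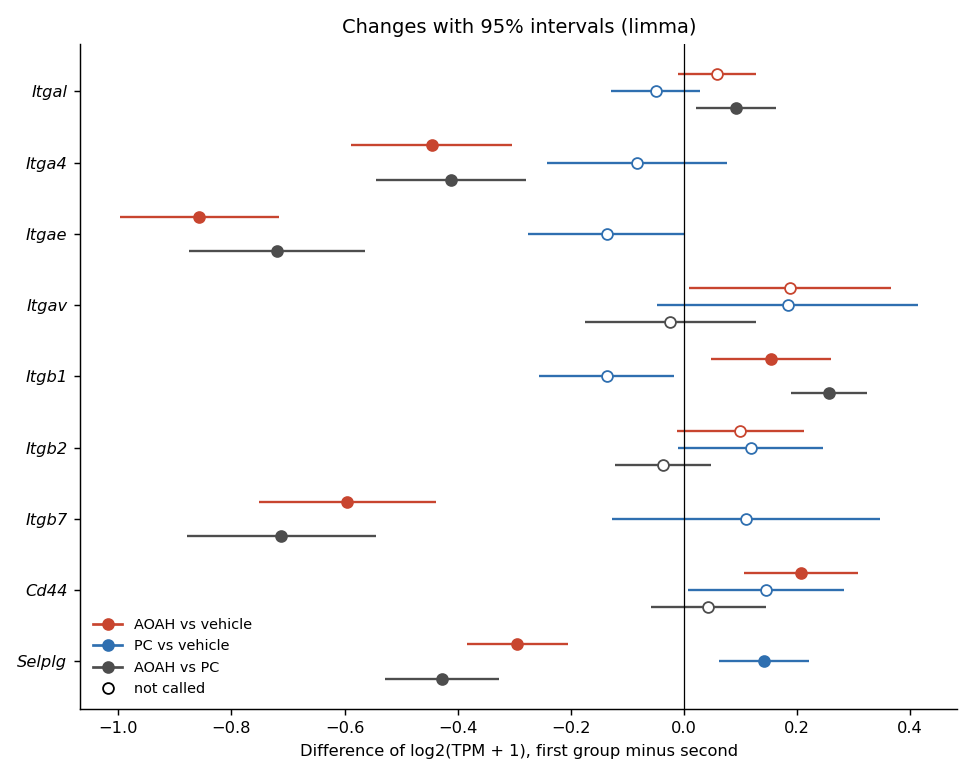
Differences of log2(TPM + 1) for the 9 genes in the 3 comparisons (first group minus second), with 95% intervals from limma, filled points for an adjusted p under 0.05 and open points for others. Itgae, Itgb7, Itga4 and Selplg lie to the left of 0 in both comparisons that contain AOAH, and Itgb1 lies to the right in both.

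Cd44 read 37.4, 39.3, 38.8 and 39.8 TPM with AOAH, 35.8, 39.5 and 37.7 TPM with PC and 35.0, 31.8, 35.15 and 32.2 TPM in vehicle. Vehicle libraries lay below all treated libraries, and AOAH and PC overlapped. Relative to vehicle Cd44 rose with AOAH by 0.21 on the log2 scale (SE 0.04, 95% interval 0.11 to 0.31, limma adjusted p = 0.00969), in 4 of 4 same-batch pairs. The PC difference was 0.15 (SE 0.06, 95% interval 0.01 to 0.28, limma adjusted p = 0.131), higher in 3 of 3 same-batch pairs, and it passed when all 11 libraries were fitted together (0.16, limma adjusted p = 0.0309). The direct difference between AOAH and PC was 0.04 (95% interval -0.06 to 0.15, limma adjusted p = 0.450), which does not show that the treatments acted alike on Cd44.

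Selplg, the most abundant of the 9 transcripts, read 212, 191, 215 and 204 TPM with AOAH, 268, 280.2 and 282 TPM with PC and 243, 259, 251 and 256 TPM in vehicle. The 3 groups did not overlap and stood in the order PC, vehicle, AOAH, the only one of the 9 genes with vehicle between the treatments and every group separate. Against vehicle it fell with AOAH by 0.29 on the log2 scale (SE 0.04, 95% interval -0.38 to -0.21, limma adjusted p = 9.40e-04), in 4 of 4 same-batch pairs. With PC it rose by 0.14 (SE 0.03, 95% interval 0.06 to 0.22, limma adjusted p = 0.0284), in 3 of 3 same-batch pairs. The rise lost its call with no filter (limma adjusted p = 0.0758) and without PC 2 (0.0872), PC 3 (0.0919), vehicle 1 (0.0865) or vehicle 3 (0.0796). The direct test of AOAH against PC gave -0.43 (SE 0.04, 95% interval -0.53 to -0.33, limma adjusted p = 1.40e-04).

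Read over the 9 genes together, 6 did not overlap between AOAH and vehicle, where 28.8% of all tested genes did not (15.1% higher and 13.7% lower), and the same 6 were called. Between PC and vehicle 1 to 3, 4 genes did not overlap (Cd44 and Selplg higher, Itgae and Itgb1 lower), where 39.2% of all tested genes did not (17.9% higher and 21.4% lower). AOAH and PC did not overlap for 6 genes, 2 higher and 4 lower with AOAH, where 50.7% of all tested genes did not (26.8% higher and 23.9% lower). The median absolute log2 difference of the 9 genes was 0.21 for AOAH against vehicle beside 0.12 over all tested genes, 0.14 beside 0.12 for PC against vehicle, and 0.26 beside 0.19 for AOAH against PC. The signed medians were 0.06, 0.11 and -0.04 for the 9 genes and 0.01, -0.01 and 0.00 for all genes. The comparisons with vehicle share vehicle libraries 1 to 3, so their values are given side by side and not as independent evidence.

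Because TPM is a level per length, the chains of a pair can be set against each other within a library. In vehicle the level of Itgb7 was 1.83 ± 0.267 times that of Itgb1 (mean ± SD, n = 4), with PC 2.13 ± 0.228 times (n = 3) and with AOAH 1.08 ± 0.0694 times (n = 4). The AOAH ratios ran from 1.01 to 1.15 and lay below those of vehicle (1.53 to 2.15) and PC (1.92 to 2.37). Itgb7 made up 26.1% of the summed TPM of the 3 beta chains with AOAH (24.2% to 27.4%), 36.8% in vehicle (32.6% to 41.1%) and 37.6% with PC (35.3% to 40.7%). Itgb1 made up 24.2%, 20.2% and 17.7% in the same order of groups. The summed TPM of the 3 beta chains itself differed, at 360 to 379 with AOAH, 384 to 409 in vehicle and 416 to 436 with PC. A share can therefore change through the total as well as through its own chain. The Itga4 level was 0.159 ± 0.00463 of the Itgb1 level with AOAH, 0.246 ± 0.00561 in vehicle and 0.258 ± 0.0201 with PC. Against Itgb7, with which it fell, the Itga4 level was 0.148 with AOAH (0.139 to 0.157) and 0.136 in vehicle (0.116 to 0.162), and these ranges overlapped. The Itgae level was 0.0725 of the Itgb7 level with AOAH (0.0704 to 0.0743), 0.0769 with PC (0.0690 to 0.0845) and 0.0923 in vehicle (0.0858 to 0.102), so that vehicle lay above both treatments. Itgal stood at 0.743 of Itgb2 with AOAH, 0.765 in vehicle and 0.679 with PC. Summed over the 4 alpha chains the level was 179 ± 4.06, 183 ± 7.08 and 181 ± 5.62 TPM with AOAH, in vehicle and with PC, and Itgal held 76.3%, 71.7% and 70.8% of it. These ratios are built from the values tested above, are given as a description, and say nothing of the protein pairs.

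**Figure D3:**
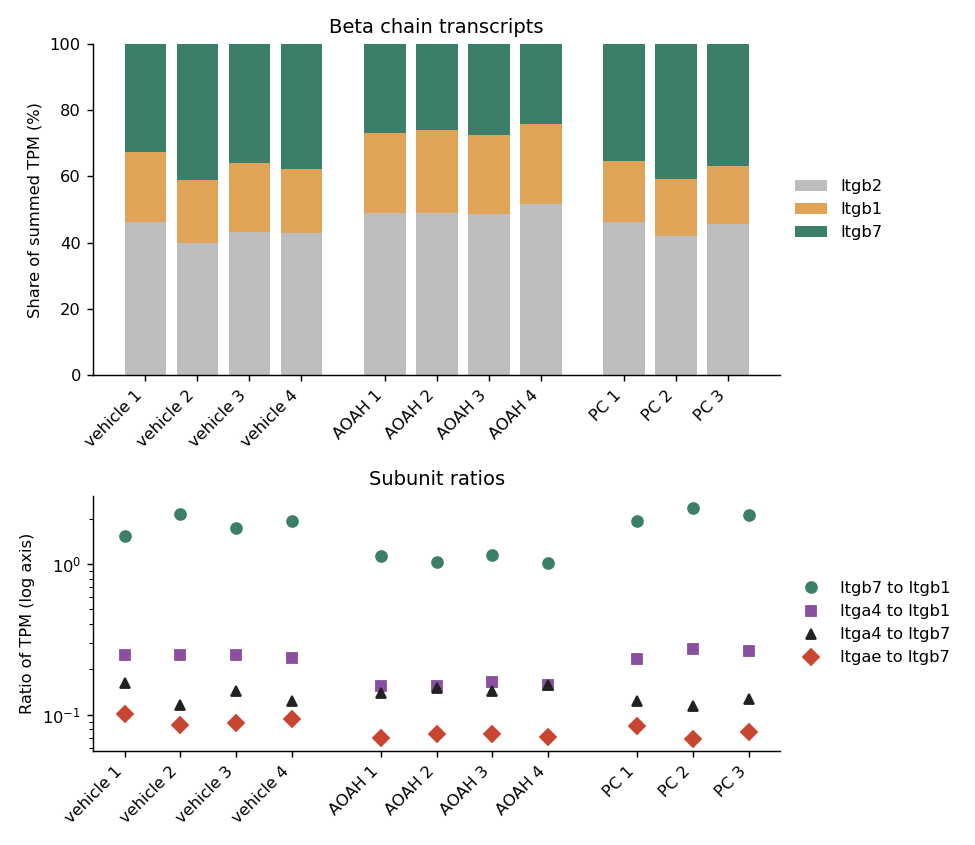
Top, shares (percent) of Itgb2, Itgb1 and Itgb7 in the summed TPM of the 3 beta chains for each library. Bottom, ratios of TPM between chains for each library on a log axis, with the Itgb7 to Itgb1 ratio at 1.01 to 1.15 in the AOAH libraries and at 1.53 to 2.37 in the others.

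The authors' deposited table for AOAH against vehicle calls 7 of the 9 genes, 3 higher and 4 lower, at an adjusted p under 0.05, where it calls 17.1% of its genes with an adjusted p. In the authors' deposited table the gene added to the 6 above is Itgav, with a log2 fold change of 0.19 (SE 0.07) and an adjusted p of 0.0387. Itgae has -0.95 in the authors' deposited table, beside the -0.86 fitted here on the log2(TPM + 1) scale. For PC against vehicle the authors' deposited table calls 1 of the 9, Selplg, with 0.16 and an adjusted p of 0.0279, where it calls 13.4% of its genes. In the authors' deposited table for AOAH the base means of the 9 genes (counts divided by size factors, averaged over libraries) run from 729 for Itgae to 13031 for Itgal, so counting depth was lowest for Itgae.

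The genes whose profiles over the 11 libraries were most like those of the 3 members with the widest span between groups were found by the root mean square difference of their centred log2(TPM + 1) values, among 8523 genes averaging 5 TPM or more. For Itgae they were Art2b, a T cell surface ADP-ribosyltransferase (0.06), Nsg2 (0.09) and H2-DMa, a peptide-loading chaperone of MHC class II (0.10), where the median of all genes was 0.42. Art2b read 14.5 TPM with AOAH, 23.4 TPM with PC and 27.9 TPM in vehicle, the group order seen for Itgae. For Itgb7 they were Gpsm3, a regulator of G protein signalling (0.07), Fam193b (0.07) and Ms4a6b (0.08), with a median of 0.36. For Itga4 they were Ehd3, an endocytic recycling protein (0.05), Rasgrp1, the Ras activator downstream of the T cell receptor (0.06), and Herc1 (0.06), with a median of 0.25. These are likenesses over libraries that share their groups, and nothing is drawn from them on function.

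Of 15 tested genes for selectins and for the sugars of their ligands, 4 rose and 3 fell with AOAH, with a median of 0.09, beside 13.1% higher, 12.1% lower and a median of 0.01 over all tested genes. The enzymes that sulfate tyrosines of PSGL-1, the protein of Selplg, moved in opposite directions: with AOAH Tpst1 rose by 0.24 and Tpst2 fell by 0.18, and with PC Tpst1 fell by 0.36 and Tpst2 rose by 0.23. With PC, 4 of the 15 rose and 1 fell, with a median of 0.10, beside 8.27% higher, 11.2% lower and a median of -0.01 over all tested genes, and 7 rose and 1 fell in 1 fit over all 11 libraries. Spn, another sialomucin of T cells, rose by 0.29 with PC.

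Of 25 tested genes tied to integrin activation or the adhesion complex, none rose and 7 fell with AOAH against vehicle. Their median was -0.04, and 12 of the 25 had an unadjusted p under 0.05 in limma's test. The list was not sorted by whether a gene promotes or restrains binding, so these counts have no functional direction. Over all tested genes 25.2% were called, 13.1% higher and 12.1% lower, so the number called in this list is near the share of all genes. With TMM rescaling 2 rose and 7 fell, and after quantile normalization none rose and 11 fell. Fyb, an adaptor of T cell adhesion, fell by 0.39 (SE 0.04, limma adjusted p = 2.64e-04) and Rassf5, the Rap1 effector RAPL that acts on LFA-1, fell by 0.27 (SE 0.03, limma adjusted p = 4.39e-04). Rasgrp2, the Rap1 activator CalDAG-GEFI, fell by 0.72 with AOAH and had 0.43 with PC, which did not pass (limma adjusted p = 0.0558). Its direct difference of -1.18 between AOAH and PC passed (limma adjusted p = 3.27e-05). The talin Tln1 and the kindlin Fermt3, which bind beta chain tails, did not pass and were named after their values were seen. Tln1 had -0.04 with AOAH (limma adjusted p = 0.489) and -0.01 with PC (limma adjusted p = 0.921). Fermt3 had -0.08 with AOAH (limma adjusted p = 0.0522) and -0.10 with PC (limma adjusted p = 0.0504), both close to the threshold. With PC 3 of the 25 rose and 3 fell, with a median of 0.01, beside 19.5% called over all tested genes, and 6 rose and 5 fell in 1 fit over all 11 libraries. Among the called genes were Rap1b (0.18), Ptk2b (0.26), Fyb (-0.33) and Parvg (-0.16).

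In the remaining lists the counts are small and are read beside the 25.2% of all tested genes called with AOAH and the 19.5% called with PC. Of the other integrin subunits only 4 of 16 in the table passed the filter. Itgb3, which pairs with Itgav, fell with AOAH by 0.40 (1.3 against 2.02 TPM) and Itga6, a laminin receptor chain that pairs with Itgb1, fell by 0.24 (14.9 against 17.8 TPM), and the call of Itga6 was lost in 5 of 16 alternatives (no filter, and without AOAH 1, AOAH 2, vehicle 1 or vehicle 3), with adjusted p up to 0.0726. With PC none of the 4 passed limma's test, 1 had an unadjusted p under 0.05, and 1 was called in 1 fit over all libraries and without vehicle 3. Of 4 tested genes in the list drawn up for integrin ligands, 2 were called with AOAH. They were Tgfb1 (0.12, limma adjusted p = 0.0495) and the low gene Lrrc32 (-0.37, 2.46 against 3.47 TPM, limma adjusted p = 0.0483). These calls were lost in 9 of 16 and 9 of 15 alternatives. The count was 0 without AOAH 1, AOAH 2, AOAH 4, vehicle 1, vehicle 2 or vehicle 4, with no filter and after quantile normalization, where 2 had an unadjusted p under 0.05 in limma's fit to all the libraries compared. With PC 2 of these 4 listed genes fell, Lrrc32 (-0.84, 1.48 against 3.47 TPM) and Icam1, the ligand of LFA-1 (-0.19). Icam1 lost its call without vehicle 1 or vehicle 3. Around CD44, Rdx, an ERM protein that ties CD44 to actin, rose by 0.14 with AOAH and fell by 0.14 with PC, and the PC call was lost in 7 of 15 alternatives (no filter, the replicate block, and without vehicle 1, vehicle 3 or any single PC library). Of the 8 tested genes of its list, 1 was called with AOAH and 3 with PC. The AOAH count was 2 or 3 in 5 of 16 alternatives, among them 2 without vehicle 1 or vehicle 3. The hyaluronan receptor Hmmr, also known for its part in the mitotic spindle, fell by 1.42 with PC (2.76 against 9.10 TPM). Of 13 tested immunoglobulin-family and other adhesion receptors, 4 rose and 4 fell with AOAH and 4 rose and 2 fell with PC. The PC falls, Cd226 (-0.29) and Jaml (-0.31), each lost the call in 5 of 15 alternatives, and without PC 1, without vehicle 1 or with no filter 3 rose and none fell, where 7 of the 13 had an unadjusted p under 0.05 in the comparison as reported. Pecam1, which fell by 0.64 with AOAH and rose by 0.32 with PC, and Alcam, which rose by 0.47 with AOAH, were among the genes called.

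**Figure D4:**
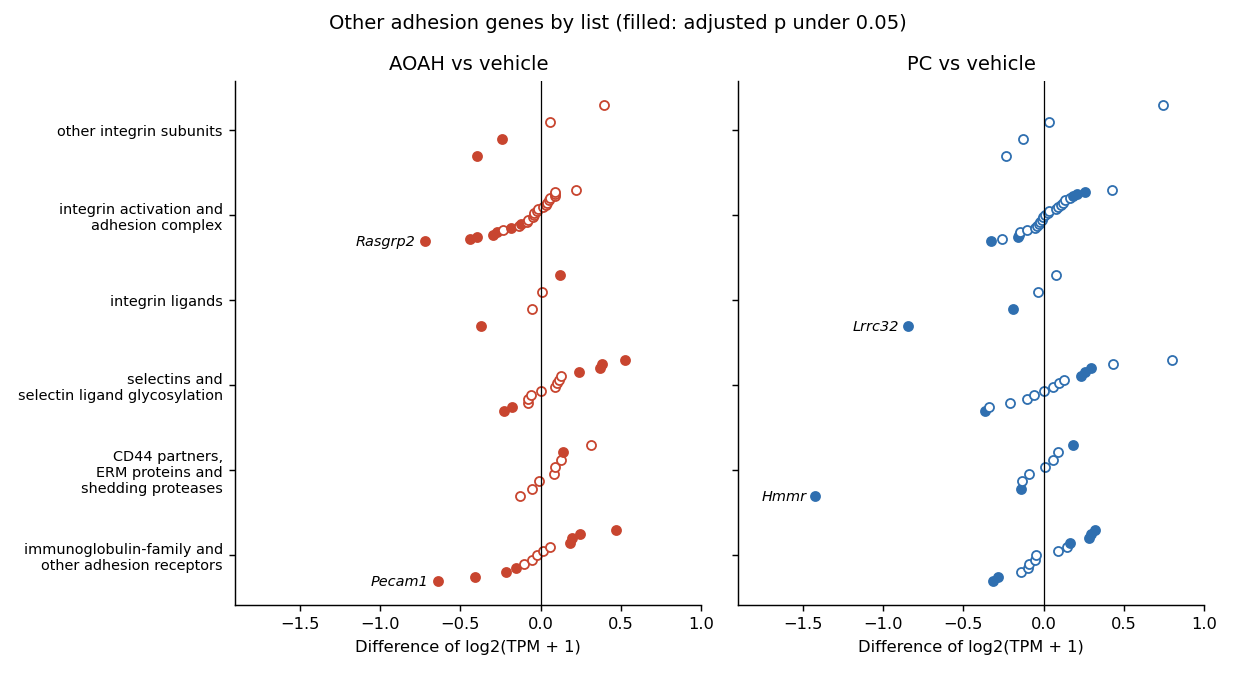
Differences of log2(TPM + 1) from vehicle for genes reported here of the 6 other adhesion lists, AOAH at the left and PC at the right, 1 point a gene ordered by its difference within a list, filled for an adjusted p under 0.05. Rasgrp2 is the lowest point with AOAH at -0.72 and Hmmr the lowest with PC at -1.42.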

How the data were processed

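RNA of 11 libraries of CD8+ T cells was analysed. The authors quantified it with RSEM on mm39 and deposited log2(TPM + 1) values, per the submitters' processing notes and judged from the numbers, which were turned back into TPM for printing. From the authors' deposited DESeq2 tables came the base mean, a signal of size-factor-scaled counts, the log2 fold change with its SE and the adjusted p-value, and the Wald score was left aside. Not given in the sources used here are versions, aligner, annotation, use of molecular identifiers and strand setting, and TPM keeps no depth, so the depth of each library is unknown. The authors' deposited repertoire table was not used.

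Tests used limma 3.58.1 (R 4.3.3), with trend and robust estimation, two-sided, on log2(TPM + 1), for genes averaging 1 TPM or more in the libraries compared, with Benjamini-Hochberg adjustment over all of them. Changes of low genes are understated on this scale. The fit was tested on simulated data with independent normal noise for each gene, so variation that genes share was not covered. The limit set on its bias was changed after a simulated fold size had slightly missed the first limit. AOAH was compared with vehicle 1 to 4, PC with vehicle 1 to 3 (vehicle 4 is not labelled for that comparison), and AOAH directly with PC. There were 11561, 11628 and 11596 genes tested. Percent changes are of group means of TPM. Percentages and ratios of chains have no test.

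The labels number libraries by batch, which is where the pairing comes from. The pair counts given for single genes above are all from groups that did not overlap. Where groups overlapped, AOAH was above vehicle in 4 of 4 pairs for Itgav and in 3 of 4 for Itgal and Itgb2. PC was above vehicle in 3 of 3 pairs for Itgb2 and Itgb7, 2 of 3 for Itgav and 1 of 3 for Itgal and Itga4. AOAH was above PC in 2 of 3 pairs for Itgav and Cd44 and in 0 of 3 for Itgb2. Deviations from group means of same-batch libraries correlated at -0.0033 on average across genes (10 pairs, -0.0794 to 0.118), and those of different batches at 0.0011 (30 pairs). Alternatives were other pseudocounts (0.1 and 5), a filter of 5 TPM or none, other scalings, 1 fit over all libraries, the batch block and each library left out.

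The 9 members, the gene lists and the marker lists were chosen with earlier results of these data known. All members are named, and values of some other genes that the rule takes are not reported here. From each list and comparison up to 2 higher and 2 lower called genes of lowest p were the rule, and other values of listed genes were picked after they were seen. For the 3 members of widest span, the 3 most alike genes are named, passing over those with no symbol of their own. Ensembl IDs of the deposited tables matched all 9 members. No gene coordinates are given in mm39, as the reference at hand is GRCm38.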

Additional observations from a re-analysis of the deposited data

How the results depend on the processing

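Of 414 values of the 9 genes under alternatives, 386 kept their direction and their side of the threshold, 22 lost a call, 4 gained one and 2 changed sign. The calls of Itga4, Itgae, Itgb7, Cd44 and Selplg for AOAH against vehicle were kept in 16 of 16 alternatives, and those of Itga4, Itgae, Itgb1, Itgb7 and Selplg for AOAH against PC in 15 of 15. The Itgav difference between AOAH and PC, not called, ran from -0.0777 to 0.0113 with a library left out, with 0.0029 without AOAH 2 and 0.0113 without PC 3. For PC against vehicle, 2270 genes were called, 1339 with no filter and 1274 to 2083 with a library left out, lowest without vehicle 1. Of the 9 genes, limma called 1 there, 0 with no filter, 2 in 1 fit over all 11 libraries and 0 to 2 with a library left out, where 3 had an unadjusted p under 0.05 in the comparison as reported. With batch as a replicate block, 2300 genes were called for AOAH against vehicle, 1572 for PC against vehicle and 4246 for AOAH against PC, and 5, 1 and 5 of the 9 genes. The block took the calls of Itgb1 and Itgal given above and changed no other call of the 9. Of the named genes of the other lists, whose alternatives were added after seeing the data, 725 of 776 values were kept, 51 lost the call and 0 changed sign. The cause of these changes was not tested. A Dixon gap test looked for a single outlying library in the levels of the 9 genes and the ratios of chains. It covered the AOAH and vehicle groups, of 4 libraries each, and flagged none in 30 sets of values. These sets reuse the same libraries, and the PC libraries were not tested. A test for a single library does not address the split of the vehicle libraries described above. TPM keeps no depth, so no counting interval is given beside a TPM value, and the base means in the authors' deposited table (729 or more for each of the 9 genes with AOAH) are the only measure of counting used. Groups of 3 or 4 libraries limit the precision.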

Other observations

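Several integrin genes known from other leukocytes or tissues stayed near 0 in every library. Itga1, the collagen receptor chain of tissue-resident T cells, read 0.00 to 0.05 TPM, Itga2 0.05 to 0.20 TPM, and Itgam, the myeloid chain that pairs with Itgb2, 0.05 to 0.15 TPM. Itgb8, which pairs with Itgav, read 0.00 to 0.03 TPM and Itgb5, another partner of Itgav, 0.00 to 0.16 TPM. Of the ligands, Vcam1 read 0.00 to 0.06 TPM, Madcam1 0.00 to 0.35 TPM and Cdh1, the E-cadherin bound by Itgae with Itgb7, 0.03 to 0.30 TPM. Gcnt1, the enzyme that builds the branched sugar by which PSGL-1 binds selectins, read 0.03 to 0.29 TPM, while Selplg stood at 191 to 282 TPM. None of these genes passed the filter, and no comparison was made.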
